A study of Mus musculus with 18 samples.

Results

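The fibroblast growth factor (FGF) ligands and receptors described here are 10 genes of the 49184 to which transcripts of the mouse knee cartilage libraries were assigned. They were chosen by name, with earlier results of these data known. The 10 are 5 ligands (Fgf1, Fgf2, Fgf7, Fgf10 and Fgf18), the 4 signalling receptors (Fgfr1, Fgfr2, Fgfr3 and Fgfr4) and the receptor-like gene Fgfrl1. All 10 passed the filter on low counts in both sets of libraries tested.

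Total RNA was sequenced from cartilage caps of the femoral condyle in a model of post-traumatic osteoarthritis, in which a single 12 N load to the right knee ruptures the anterior cruciate ligament (ACL). The mice were wild-type C57Bl/6J males of 12 weeks, and each library was made from a pool of knees. Injured right knees and contralateral left knees were taken 1 day or 7 days after rupture, with 3 libraries for each knee and day. Another 6 libraries, all labelled day 7, came from naïve mice that received no load. Comparisons of day 1 cartilage with naïve cartilage therefore also cross the labelled days. The contralateral knees belong to injured mice and so are not knees of untouched animals. The naïve libraries came from left and right knees pooled apart, so that some of them hold cartilage of the same mice. Both knees of the same injured mice were likewise pooled apart. The study's own model allowed for libraries of the same mouse pool, but the labels used here do not tie libraries to pools, so that the p-values below treat all libraries as independent.

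Estimated counts assigned to transcripts totalled 16074762 to 41794005 per library, with a median of 25465706. Replicate 1 of the day 7 contralateral group stood apart from the other libraries. Its 10 most abundant genes took 42.5% of its counts, against 16.6% to 29.8% in the other 17 libraries, and its normalization factor was 0.696, against 0.829 to 1.16. Fold changes against day 7 contralateral cartilage are given with and without it for the FGF genes and, for the FGF pathway lists, as counts and for the genes whose call changed. Fits of that comparison with other settings, such as an offset for transcript length, included it.

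FGFs are secreted proteins that bind FGF receptors together with heparan sulfate, and the receptor, a tyrosine kinase, then signals through the adaptor Frs2 to the Ras-ERK cascade. The same cascade switches on its own inhibitors, among them the Sprouty, Spred and Dusp genes. In cartilage, FGF2 is held in the matrix around chondrocytes and released by loading or injury, FGF18 stimulates cartilage matrix synthesis, and FGFR3 restrains chondrocyte proliferation in the growth plate. FGF7 and FGF10 are mesenchymal ligands that mainly bind the IIIb form of FGFR2, whereas FGFRL1 binds FGFs but lacks the kinase domain.

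At day 7 after ACL rupture, injured cartilage held more RNA of the ligands Fgf7 and Fgf18 and of the receptors Fgfr1 and Fgfrl1 than naïve cartilage. These 4 of 10 genes were called higher and 0 of 10 lower by edgeR's quasi-likelihood test, at an adjusted p of at most 0.05 and a change of at least 1.5-fold. Of all 21129 genes tested in that comparison, 10.4% were called higher and 6.11% lower. Over the 10 genes the fitted log2 values had a median of 0.49, against -0.04 over all genes tested. Against the contralateral cartilage of day 7 the same 4 genes were called higher and 0 lower, where 9.33% of all 21262 genes tested were called higher and 3.23% lower. When replicate 1 of the contralateral group was left out these shares were 9.31% and 1.99%, and the members called were again 4 higher and 0 lower. With an offset for transcript length and all 18 libraries, 2 of the 10 (Fgf7 and Fgf18) were called higher and 1 (Fgf1) lower against contralateral cartilage. By the same test 4 genes, again Fgf7, Fgf18, Fgfr1 and Fgfrl1, were called higher than in injured cartilage of day 1, against a background of 9.04% higher and 6.38% lower. In TPM, which is not TMM-normalized, the day 1 and day 7 injured libraries overlapped for all 4, and the mean of Fgfr1 was lower at day 7 (24.5) than at day 1 (28.7 TPM). These 3 comparisons share the day 7 injured libraries. In bulk tissue a change in the number of cells of a type cannot be told apart from a change in the RNA of each cell.

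**Figure D1:**
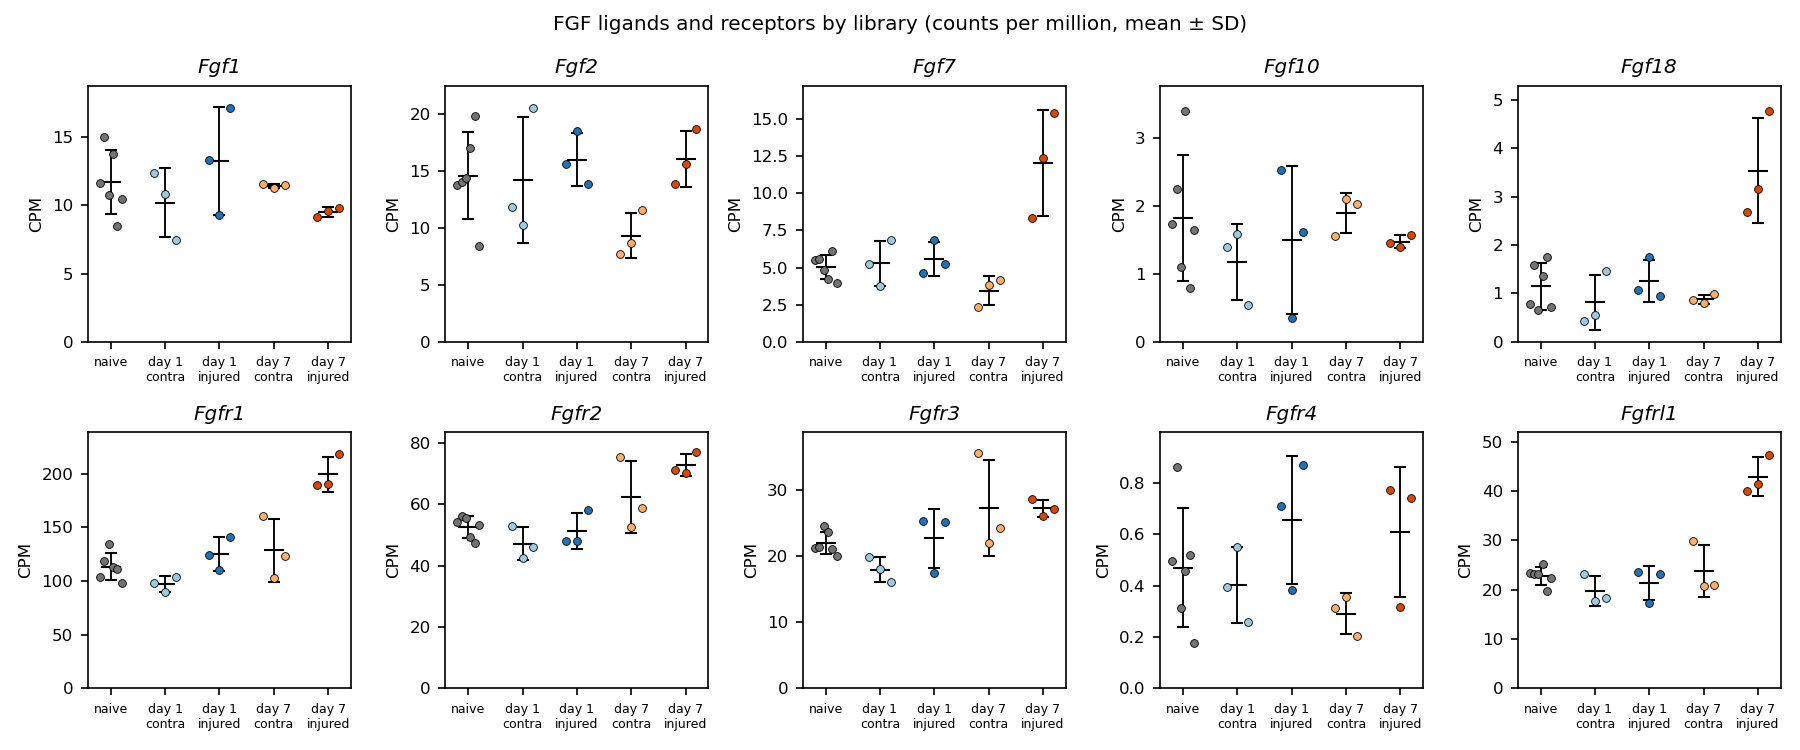
CPM values (library-scaled counts, on the scale of TMM-normalized libraries) of the 10 genes, with 1 point per library, the group mean as a bar and the SD as whiskers. For Fgf7, Fgf18, Fgfr1 and Fgfrl1 the 3 injured libraries of day 7 lie above all other libraries.

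The levels of the 10 genes were first compared with each other in TPM, a unit that scales the reads of a library for transcript length. In naïve cartilage Fgfr1 was the most abundant, with 18.1 ± 3.70 TPM (SD, n = 6). Fgfr2 followed with 11.2 ± 1.28, Fgfrl1 with 7.04 ± 0.648 and Fgfr3 with 3.75 ± 0.800 TPM. The ranges of Fgfr1, Fgfr2, Fgfrl1 and Fgfr3 did not overlap from one to the next. The means of the ligands lay below those of these 4 genes, with 2.22 ± 0.250 TPM for Fgf1, 1.92 ± 1.12 for Fgf2, 1.56 ± 0.447 for Fgf7, 0.642 ± 0.262 for Fgf18 and 0.262 ± 0.137 for Fgf10. The ranges of Fgf1 and Fgf2 reached into that of Fgfr3. Fgf7 stood above Fgf18 in all naïve libraries, whereas Fgf1, Fgf2 and Fgf7 overlapped with their neighbours and Fgf18 with Fgf10. Fgfr4 was the lowest, at 0.0734 ± 0.0291 TPM, and overlapped with Fgf10.

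The order of the ligands in TPM differed in injured cartilage at day 7. Fgf7 was then the highest ligand with 3.06 ± 1.20 TPM (SD, n = 3), followed by Fgf2 with 1.80 ± 0.424, Fgf18 with 1.65 ± 0.720 and Fgf1 with 1.21 ± 0.0948, each overlapping with the next. Fgf7 took 38.0% ± 4.51 of the summed TPM of the 5 ligands, against 23.8% ± 5.31 in naïve cartilage, and its lowest share at day 7, 33.1%, lay above its highest naïve share, 30.1%. For Fgf18 this share was 20.6% ± 3.56 against 9.51% ± 2.16, and for Fgf1 16.1% ± 3.83 against 35.1% ± 8.27. Among the 4 signalling receptors, Fgfr1 took 59.5% ± 2.05 of the summed TPM at day 7 and 54.4% ± 2.93 in naïve cartilage, and these ranges overlapped.

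**Figure D2:**
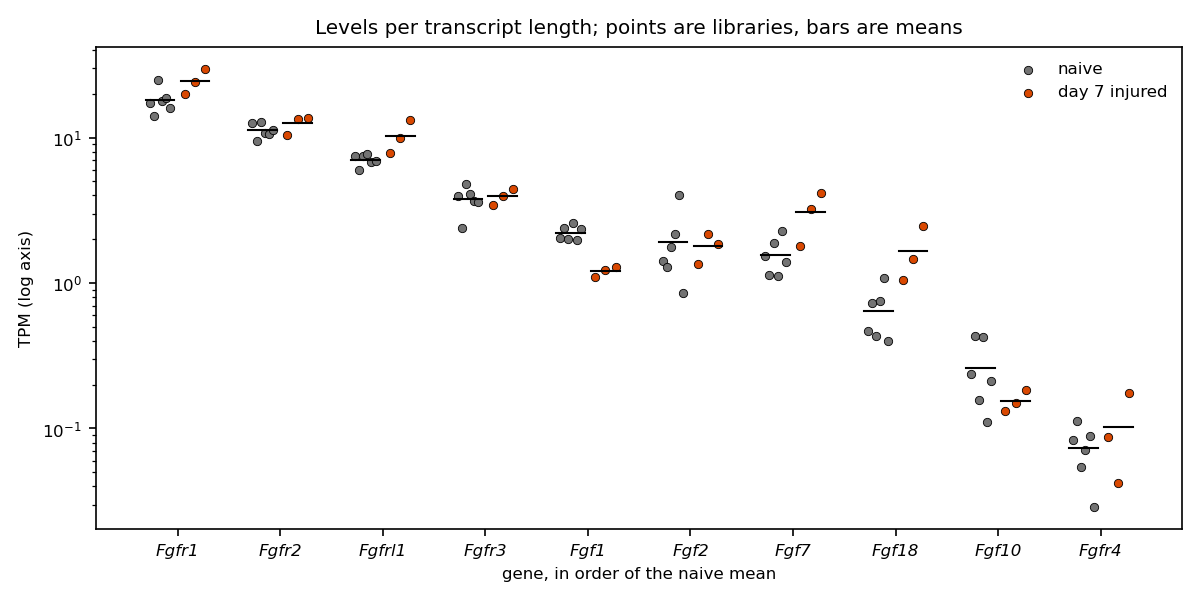
TPM on a log axis of the 10 genes in the 6 naïve and the 3 day 7 injured libraries, in order of the naïve mean, with points for libraries and bars for means. Fgfr1 leads in both groups, and Fgf18 lies above Fgf1 in the mean of the day 7 injured libraries but not in that of the naïve libraries.

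Fgf7 (ENSMUSG00000027208, GRCm38 chr2:126034658-126091185, plus strand), also known as keratinocyte growth factor, measured 8.31, 12.4 and 15.4 CPM in the 3 injured libraries of day 7. The naïve libraries ranged from 3.96 to 6.09 CPM with a median of 5.18, and the contralateral libraries of day 7 held 2.34, 3.83 and 4.16 CPM. In CPM the injured libraries of day 7 were thus all above every other library, whereas in TPM (1.80 to 4.19) they overlapped with the naïve libraries (1.12 to 2.27). The fitted log2 fold change was 1.28 (SE 0.210, 2.42-fold, adjusted p = 0.000315) against naïve and 1.78 (SE 0.272, 3.43-fold, adjusted p = 0.000154) against contralateral cartilage. Without replicate 1 of the day 7 contralateral group, which had the lowest Fgf7 value, the latter was 1.61 (adjusted p = 0.000830). The gene lies inside Fam227b on the opposite strand, and whether strand was used in the counting is not stated, but Fam227b held only 0.0683 ± 0.0370 CPM in naïve and 0.0517 ± 0.0101 CPM in day 7 injured cartilage.

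Fgf18 (ENSMUSG00000057967, chr11:33117430-33147400, minus strand) is the ligand known for cartilage anabolic effects. It measured 2.68, 3.17 and 4.76 CPM in injured cartilage at day 7, from at least 50 estimated counts in each. The naïve libraries ranged from 0.656 to 1.75 CPM with a median of 1.08, and the day 7 contralateral libraries held 0.857, 0.802 and 0.980 CPM. Again no library of another group reached the injured libraries of day 7 in CPM, while in TPM the lowest of them, 1.05, lay just under the highest naïve library, 1.08. Its log2 fold change was the largest of the 10 genes, at 1.66 (SE 0.380, 3.16-fold, adjusted p = 0.00413) against naïve and 1.99 (SE 0.454, 3.98-fold, adjusted p = 0.00467) against contralateral cartilage. Without replicate 1 of the day 7 contralateral group it was 1.999 (adjusted p = 0.0140). Against injured cartilage of day 1 the log2 fold change was 1.5001 (SE 0.4499, adjusted p = 0.0251), and this call was lost without replicate 1 (1.38, adjusted p = 0.0808) or 3 (1.34, adjusted p = 0.0856) of the day 1 injured group or replicate 3 of the day 7 injured group (1.22, adjusted p = 0.105).

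Fgf2 (ENSMUSG00000037225), basic FGF, was not called in any comparison by edgeR as fitted here. It held 13.8, 15.6 and 18.7 CPM in injured cartilage at day 7 and 8.45 to 19.9 CPM with a median of 14.2 in naïve cartilage, so that these groups overlapped. The contralateral libraries of day 7 held 7.72, 8.65 and 11.5 CPM, below all injured libraries of day 7 and below 5 of the 6 naïve libraries. The log2 fold change was 0.15 (SE 0.240, adjusted p = 0.657) against naïve and 0.78 (SE 0.278, adjusted p = 0.0610) against contralateral cartilage, or 0.69 (adjusted p = 0.157) without replicate 1. The latter comparison lay near the threshold, since Fgf2 was called higher there with DESeq2 (0.77, adjusted p = 0.0350), with edgeR on the 2 groups alone (0.78, adjusted p = 0.0406) and without replicate 3 of the contralateral group (0.95, adjusted p = 0.0455). Nudt6, which overlaps Fgf2 on the opposite strand, held 2.52 ± 0.573 CPM in naïve and 2.10 ± 0.765 CPM in day 7 injured cartilage.

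Fgf1 (ENSMUSG00000036585), acidic FGF, measured 9.13, 9.57 and 9.81 CPM in injured cartilage at day 7, inside the naïve range of 8.51 to 14.98 CPM and below all day 7 contralateral libraries, which held 11.2 to 11.5 CPM. Neither difference was called, with log2 fold changes of -0.28 (SE 0.205, adjusted p = 0.328) and -0.26 (SE 0.226, adjusted p = 0.467), the latter being -0.23 (adjusted p = 0.592) without replicate 1 of the contralateral group. With the length offset, and with replicate 1 kept, Fgf1 was called lower than in contralateral cartilage (-0.79, adjusted p = 0.0472). In TPM the same injured libraries held 1.11, 1.22 and 1.29, below the naïve range of 1.97 to 2.57. When only protein-coding transcripts were summed, Fgf1 was called lower than in naïve cartilage, with a log2 fold change of -0.65 and an adjusted p of 0.0347 by the same edgeR test. In the 3 injured libraries, 31.2, 38.8 and 29.7 estimated counts of Fgf1 lay on a transcript (Fgf1-204) annotated as a target of nonsense-mediated decay. In 5 of the 6 naïve libraries that transcript had 0 counts, and in the other it had 36.2. The day 7 contralateral libraries held 26.3, 13.6 and 0 counts of it, so that it was not particular to injured cartilage. Fgf1 also overlaps Arhgap26 on the opposite strand, which held 45.3 ± 2.51 CPM in naïve and 38.1 ± 1.65 CPM in day 7 injured cartilage.

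Fgf10 (ENSMUSG00000021732) was scarce. It ranged from 0.350 to 3.40 CPM over the 18 libraries and its groups overlapped, with a log2 fold change of -0.28 (SE 0.522, adjusted p = 0.716) against naïve and -0.37 (SE 0.566, adjusted p = 0.705) against contralateral cartilage at day 7, the latter being -0.46 (adjusted p = 0.690) without replicate 1. With such an SE, a change of 1.5-fold was not detectable. Its naïve libraries held 20.4 to 97.2 estimated counts, and low counts and the spread between libraries were not separated.

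Fgfr1 (ENSMUSG00000031565, chr8:25513654-25575718, plus strand) rose from a naïve range of 97.8 to 135 CPM with a median of 112 to 189, 190 and 218 CPM in injured cartilage at day 7. The contralateral libraries held 160, 102 and 124 CPM, and the 160 CPM belonged to replicate 1. In CPM all injured libraries of day 7 lay above all other libraries. In TPM they held 19.8 to 29.6 and overlapped with every other group, namely 14.1 to 25.0045 in naïve, 12.8 to 23.1 in day 7 contralateral, 17.7 to 22.8 in day 1 contralateral and 23.5 to 38.4 in day 1 injured cartilage. The log2 fold change was 0.83 (SE 0.0987, 1.78-fold, adjusted p = 1.39e-05) against naïve and 0.63 (SE 0.147, 1.55-fold, adjusted p = 0.00559) against contralateral cartilage, close to the 1.5-fold limit. Without replicate 1 of the day 7 contralateral group it was 0.84 (adjusted p = 0.000382). The call against contralateral cartilage was lost when replicate 2 of that group was left out (0.47) or when replicate 3 of the injured group was left out (0.55), both under 1.5-fold.

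Fgfrl1 (ENSMUSG00000008090, chr5:108692382-108706924, plus strand), the receptor-like gene without a kinase domain, measured 40.0, 41.3 and 47.4 CPM in injured cartilage at day 7. The naïve libraries ranged from 19.8 to 25.3 CPM with a median of 23.1, and the contralateral libraries held 29.8, 20.7 and 20.9 CPM, the first being replicate 1. No other library reached the injured libraries in CPM. In TPM they held 7.82 to 13.2, above the naïve range of 5.95 to 7.73. They overlapped with day 7 contralateral (6.66 to 7.95), day 1 contralateral (5.45 to 10.6) and day 1 injured cartilage (7.53 to 12.5). The log2 fold change was 0.93 (SE 0.109, 1.90-fold, adjusted p = 1.27e-05) against naïve and 0.85 (SE 0.155, 1.81-fold, adjusted p = 0.000741) against contralateral cartilage. Without replicate 1 it was 1.07 (adjusted p = 7.46e-05). In replicate 1, 72.9 estimated counts of Fgfrl1 lay on a transcript with a retained intron, against at most 10.5 in any other library.

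With an offset for transcript length in the same edgeR test, Fgfr1 and Fgfrl1 were no longer called against day 7 contralateral cartilage. That fit included replicate 1 of the contralateral group, and the offset was not run without it. Their log2 fold changes were then 0.34 (adjusted p = 0.218) and 0.30 (adjusted p = 0.558). Against naïve cartilage both were still called with that offset, at 0.77 (adjusted p = 7.11e-05) and 0.87 (adjusted p = 0.000188). The same held against day 1 injured cartilage, at 0.68 (adjusted p = 0.00163) and 0.99 (adjusted p = 0.000497).

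Fgfr2 (ENSMUSG00000030849) and Fgfr3 (ENSMUSG00000054252) also lay above every naïve library in injured cartilage at day 7, but by less than 1.5-fold. Fgfr2 measured 71.2, 70.3 and 77.0 CPM against a naïve range of 47.3 to 56.1, a log2 fold change of 0.49 (SE 0.0836, adjusted p = 0.000447). Fgfr3 measured 28.6, 26.0 and 27.1 CPM against 19.99 to 24.5, a log2 fold change of 0.33 (SE 0.111, adjusted p = 0.0362). Neither was separated from contralateral cartilage of day 7. The contralateral libraries held 75.5, 52.8 and 58.8 CPM of Fgfr2 and 35.5, 21.9 and 24.2 CPM of Fgfr3, each with replicate 1 as the highest. The log2 fold changes were 0.23 (SE 0.125, adjusted p = 0.231) for Fgfr2 and 0.01 (SE 0.164, adjusted p = 0.989) for Fgfr3. Without replicate 1 they were 0.41 (adjusted p = 0.0162, under the fold limit) and 0.26 (adjusted p = 0.244). Against injured cartilage of day 1, Fgfr2 was at 0.52 (SE 0.0982, adjusted p = 0.00147, under the fold limit) and Fgfr3 at 0.28 (SE 0.129, adjusted p = 0.119). Fgfr2 was called there when replicate 3 of the day 1 injured group was left out (0.61, adjusted p = 0.000999).

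Fgfr4 (ENSMUSG00000005320) had 4 to 22 estimated counts per library. It measured 0.772, 0.317 and 0.740 CPM in injured cartilage at day 7 and 0.178 to 0.861 CPM in naïve cartilage, and the groups overlapped (log2 fold change 0.49, SE 0.436, adjusted p = 0.419). The day 7 contralateral libraries held 0.312, 0.357 and 0.203 CPM. Against them the log2 fold change was 1.13 (SE 0.534, adjusted p = 0.160), or 1.20 (adjusted p = 0.199) without replicate 1, and it was not called.

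**Figure D3:**
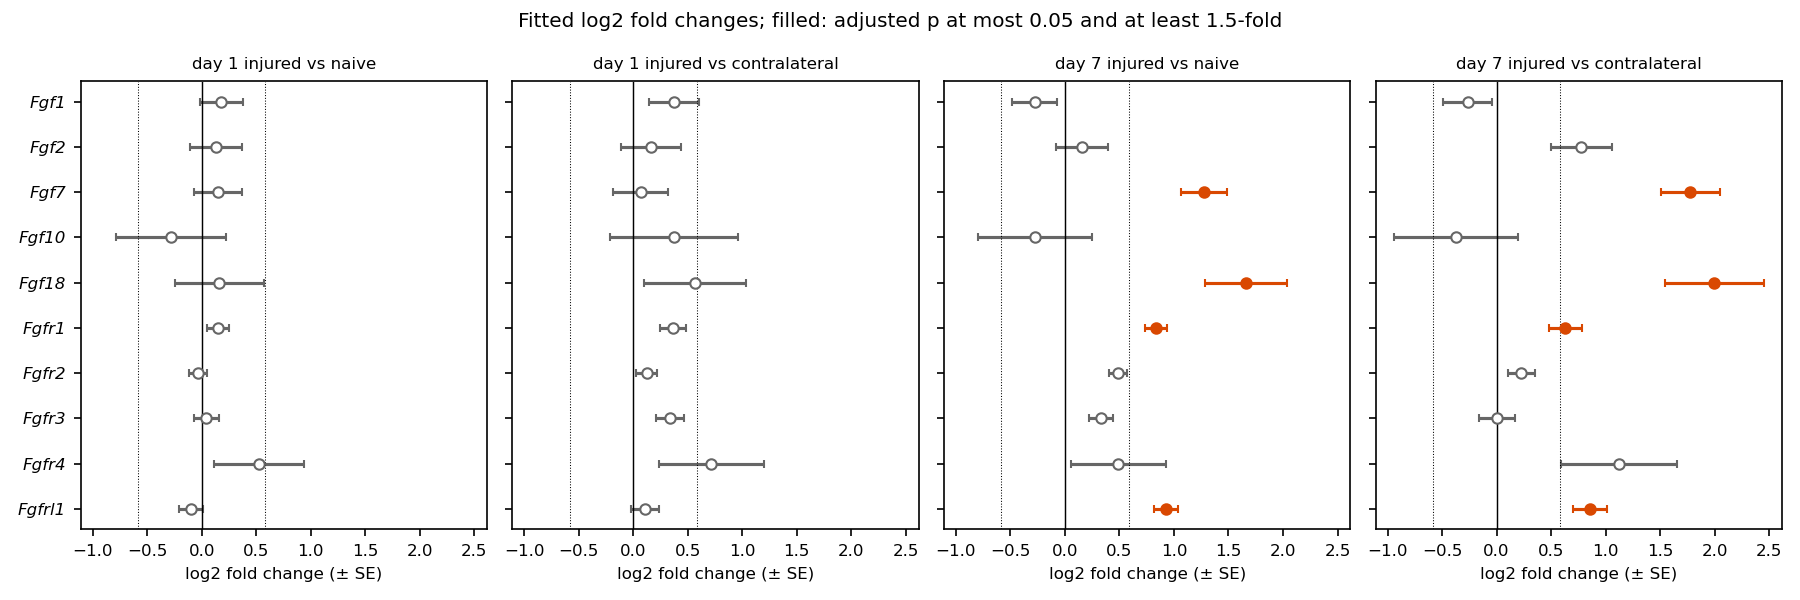
Fitted log2 fold changes with SE for the 10 genes in 4 comparisons, from edgeR. Filled points passed the adjusted p and the fold limit (dotted lines at 1.5-fold); they are Fgf7, Fgf18, Fgfr1 and Fgfrl1 in both comparisons of day 7 and none in those of day 1.

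At day 1 after rupture none of the 10 genes was called, and neither was any other gene. By edgeR the background was 0% of 21129 genes both against naïve and against day 1 contralateral cartilage, with 959 and 1383 genes at an unadjusted p under 0.05. DESeq2 called 0 genes higher and 15 lower against naïve cartilage and 0 against contralateral cartilage, and limma-voom called 0 in both. Fgf7 measured 4.62, 6.87 and 5.22 CPM in injured cartilage at day 1, within the range of the day 1 contralateral libraries (3.79 to 6.82) save for the highest. Its log2 fold change was 0.15 (SE 0.218, adjusted p = 0.989) against naïve and 0.07 (SE 0.250, adjusted p = 0.971) against contralateral cartilage. For Fgf18 the values against naïve and contralateral cartilage were 0.16 (SE 0.407, adjusted p = 0.996) and 0.56 (SE 0.471, adjusted p = 0.844). For Fgfrl1 they were -0.10 (SE 0.113, adjusted p = 0.987) and 0.11 (SE 0.129, adjusted p = 0.898).

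Fgfr1 held 124, 110 and 141 CPM in injured and 97.9, 89.6 and 104 CPM in contralateral cartilage at day 1. These groups did not overlap, but the log2 fold change of 0.36 (SE 0.117, unadjusted p = 0.00740) had an adjusted p of 0.755 over all genes by edgeR. In contralateral cartilage none of the 10 genes was called against naïve cartilage at day 1 or at day 7, where the background was also 0% in both, with 554 and 3220 genes at an unadjusted p under 0.05. DESeq2 called 1 gene higher and 1 lower at day 1 and 18 higher and 13 lower at day 7, and limma-voom called 0. At day 7 the contralateral log2 values were -0.52 (SE 0.241, adjusted p = 0.324) for Fgf7 and -0.64 (SE 0.246, adjusted p = 0.263) for Fgf2. Without replicate 1 they were -0.33 (adjusted p = 0.929) and -0.53 (adjusted p = 0.907), and edgeR again called 0 genes, with 1201 at an unadjusted p under 0.05.

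The injury effect, injured against contralateral cartilage, was then compared between the days. Of the 10 genes, edgeR's test was passed by Fgf7 alone, with an effect that was larger at day 7 by 1.70 on the log2 scale (SE 0.375, adjusted p = 0.0140). Of all genes tested, 3.72% had a larger and 0.287% a smaller effect at day 7. Without replicate 1 of the day 7 contralateral group, the difference of Fgf7 was 1.54 (adjusted p = 0.0237). It was lost when replicate 3 of the day 1 contralateral group (1.46, adjusted p = 0.0521) or replicate 3 of the day 7 injured group (1.48, adjusted p = 0.0592) was left out. The differences were 0.74 for Fgfrl1 (SE 0.218, adjusted p = 0.0684), 1.42 for Fgf18 (SE 0.634, adjusted p = 0.271) and 0.27 for Fgfr1 (SE 0.208, adjusted p = 0.573). With replicate 1 of the day 7 contralateral group left out it passed for Fgfrl1 (0.96, adjusted p = 0.00686), and was 1.44 for Fgf18 (adjusted p = 0.286) and 0.48 for Fgfr1 (adjusted p = 0.151). Fgfrl1 also passed with DESeq2 (0.73, adjusted p = 0.0383), with limma-voom (0.79, adjusted p = 0.0417) and with protein-coding transcripts only (0.80, adjusted p = 0.0238). With the length offset and all 18 libraries, however, its difference was 0.17 (adjusted p = 0.893) and that of Fgfr1 was 0.0658 (adjusted p = 0.939). Fgf7 still passed there (1.64, adjusted p = 0.0376).

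The sequences upstream of 3 of the 4 called genes are shown because these genes were called higher together at day 7. The window of Fgfr1 was not analysed here. Each holds the 250 bases before the RefSeq start site, 5′ to 3′ on the gene's strand (GRCm38.p6), with matches to a GC box (CCGCCC on either strand) in capitals. The first is chr2:126034408-126034657, plus strand, the second chr11:33147401-33147650, minus strand, and the last chr5:108693979-108694228, plus strand.
Fgf7: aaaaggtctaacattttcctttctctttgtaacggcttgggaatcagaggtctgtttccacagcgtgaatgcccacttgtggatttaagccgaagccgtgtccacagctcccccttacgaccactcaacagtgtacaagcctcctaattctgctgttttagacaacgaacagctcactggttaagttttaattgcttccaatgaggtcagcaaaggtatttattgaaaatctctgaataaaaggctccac
Fgf18: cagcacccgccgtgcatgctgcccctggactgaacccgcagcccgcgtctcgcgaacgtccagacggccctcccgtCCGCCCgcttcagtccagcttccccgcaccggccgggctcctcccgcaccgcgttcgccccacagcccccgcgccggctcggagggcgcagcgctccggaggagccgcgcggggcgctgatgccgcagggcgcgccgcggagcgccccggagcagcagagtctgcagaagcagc
Fgfrl1: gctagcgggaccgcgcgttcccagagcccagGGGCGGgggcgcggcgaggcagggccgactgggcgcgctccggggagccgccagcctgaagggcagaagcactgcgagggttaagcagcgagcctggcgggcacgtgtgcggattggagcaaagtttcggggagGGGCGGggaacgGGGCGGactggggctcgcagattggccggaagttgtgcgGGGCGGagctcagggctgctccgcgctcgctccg

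The windows differed in base composition. GC content was 77.2% for Fgf18 and 73.6% for Fgfrl1 but 43.6% for Fgf7, against a median of 52.4% over the 32851 windows of the same length in the table. The window of Fgfrl1 held 4 GC boxes, that of Fgf18 held 1 and that of Fgf7 held 0, while 32.7% of all windows held at least 1. None of the 3 windows held a TATA box (TATAAA, on either strand, in 12.4% of all windows) or an AP-1 element (TGANTCA, in 6.75%). A match, or the lack of one, describes these letters and not binding.

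The receptor genes Fgfr1, Fgfr2 and Fgfr3 each use 1 of 2 alternative exons for the last part of the third immunoglobulin domain. This choice, IIIb or IIIc, decides which ligands bind, and mesenchymal cells are known for the IIIc form. Both are coding exons of GENCODE transcripts on GRCm38, and Fgf7 mainly binds the IIIb form of Fgfr2.

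Transcripts with exon IIIc held most of the estimated counts of all 3 receptors in every library. For Fgfr2 the IIIb share of the counts on either form was 6.70%, 8.998% and 6.69% in injured cartilage at day 7, with a mean of 7.46% ± 1.33 (SD, n = 3), and 7.12% ± 1.46 (SD, n = 6) in naïve cartilage. The difference of 0.349 percentage points did not pass the two-sided exact permutation test (p = 0.762, adjusted p = 0.985 over 16 exact tests). For Fgfr1 the shares were 6.60% ± 0.995 and 6.49% ± 2.90 (exact permutation p = 0.976, adjusted p = 1). Its IIIb counts lay on the protein-coding Fgfr1-213 and on Fgfr1-208, annotated as a target of nonsense-mediated decay. In the day 7 injured libraries Fgfr1-208 held 165, 114 and 140 estimated counts and Fgfr1-213 held 104, 102 and 109. The naïve libraries held 47.3 to 134 of the former and 0 to 201 of the latter. The shares of Fgfr3 rested on few counts, 0 to 92.6 per library on the IIIb form, and were 8.08% ± 6.48 at day 7 and 3.52% ± 4.53 in naïve cartilage (exact permutation p = 0.190, adjusted p = 0.610). Transcripts with either exon held 71.1% to 95.8% of the estimated counts of these genes over all libraries. In TPM, which scales for transcript length, the shares in day 7 injured and naïve cartilage were 11.5% and 11.3% for Fgfr1, 10.5% and 10.4% for Fgfr2 and 9.73% and 6.41% for Fgfr3. Kallisto splits reads among transcripts that share sequence, so that the shares are estimates with no counting interval.

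The balance of Fgfr1 and Fgfr3 was compared as the log2 ratio of their TPM. It was 2.63 ± 0.107 (SD, n = 3) in injured cartilage at day 7 and 2.28 ± 0.182 (SD, n = 6) in naïve cartilage, with ranges that overlapped narrowly (lowest injured 2.54, highest naïve 2.57). The difference of 0.35 had an exact permutation p of 0.0476 and an adjusted p of 0.571. Contralateral cartilage of day 7 measured 2.42 ± 0.114, below all 3 injured libraries (exact permutation p = 0.1, the smallest that 3 against 3 libraries allow, adjusted p = 0.571). This difference was 0.21, and 0.23 without replicate 1 of that group. The separation depended on the unit. As a ratio of estimated counts the injured libraries of day 7 held 2.73, 2.87 and 3.01, above all other 15 libraries, of which the highest was 2.70. The differences were then 0.51 against naïve (exact permutation p = 0.0238, unadjusted) and 0.62 against contralateral cartilage (exact permutation p = 0.1). None of the 16 exact tests of the TPM ratios and IIIb shares passed after adjustment.

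**Figure D4:**
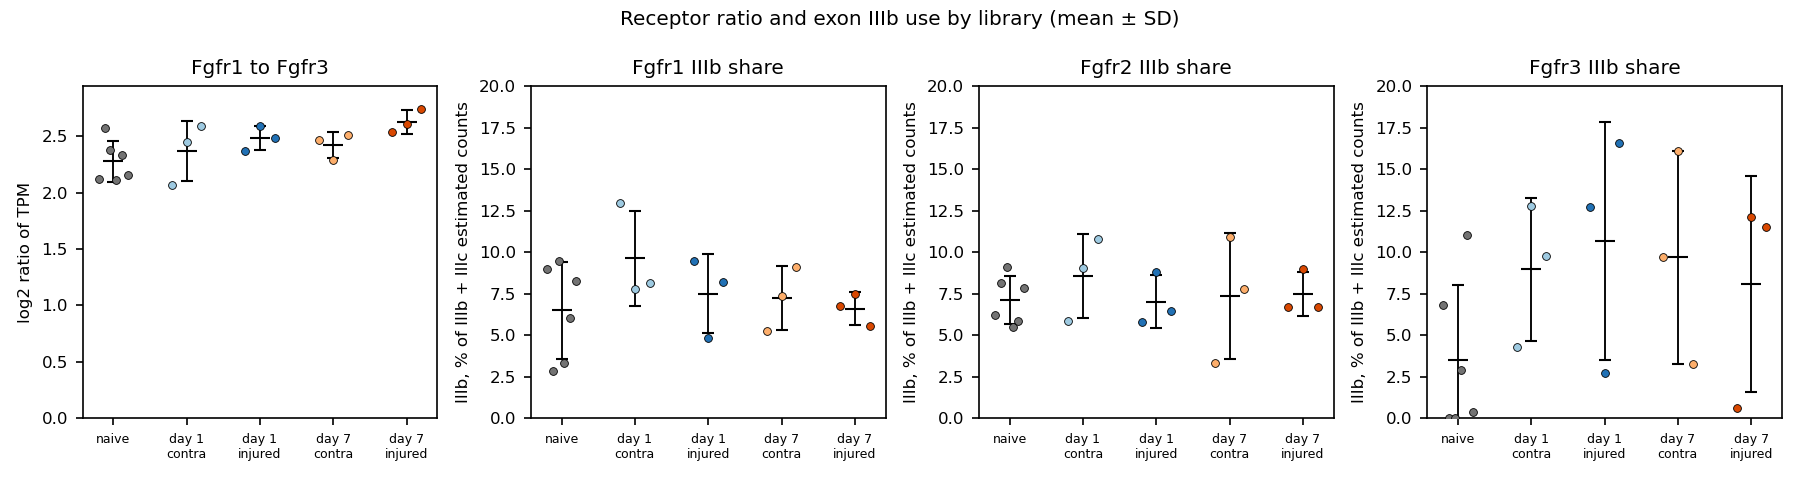
Log2 ratio of Fgfr1 to Fgfr3 in TPM, and share of exon IIIb in the estimated counts of the IIIb and IIIc forms of Fgfr1, Fgfr2 and Fgfr3, with 1 point per library, group means and SD (an SD reaching below 0 is drawn only to the axis). The Fgfr3 share spreads from 0% to 16.5%, whereas the Fgfr1 and Fgfr2 shares lie between 2.83% and 12.9%.

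Most genes that carry or trim heparan sulfate, and some of those that build it, rose in injured cartilage at day 7. Of the 12 tested heparan sulfate proteoglycan and sulfatase genes, 10 were called higher and 0 lower than in naïve cartilage, with a median log2 fold change of 1.05, where 10.4% of all genes tested were called higher and 6.11% lower with a median of -0.04. Since the pathway lists were chosen with earlier results of these data known, their counts are a description. The extracellular sulfatases Sulf2 and Sulf1, which remove 6-O-sulfate groups used in FGF receptor complexes, rose by 2.58 (SE 0.161, adjusted p = 2.56e-08) and 2.01 (SE 0.232, adjusted p = 1.08e-05) on the log2 scale. Sulf2 went from 42.8 ± 7.08 CPM in naïve to 253 ± 73.6 CPM in injured cartilage. The cell-surface proteoglycans Sdc1 (1.84, SE 0.251) and Sdc2 (1.42, SE 0.143) rose as well. Against contralateral cartilage of day 7, 7 of the 12 were called higher and 0 lower, with Sulf2 at 2.86 (SE 0.234) and Sulf1 at 2.58 (SE 0.328), beside 9.33% and 3.23% of all genes. Leaving out replicate 1 of the contralateral group gave 9 of the 12, Gpc1 (0.74, adjusted p = 0.00330) and Sdc4 (1.11, adjusted p = 0.000483) being added.

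Of 10 tested genes of heparan sulfate synthesis, 4 were called higher and 0 lower against naïve cartilage (10.4% and 6.11% of all genes), with a median of 0.53. They were the chain polymerases Ext1 (log2 fold change 1.23, SE 0.131) and Ext2 (0.67, SE 0.0954), the 2-O-sulfotransferase Hs2st1 (1.14, SE 0.0770) and the epimerase Glce (0.62, SE 0.114). Hs2st1 held 26.2 ± 1.83 CPM in naïve and 57.1 ± 4.10 CPM in injured cartilage. Against contralateral cartilage 5 were called higher, with the 6-O-sulfotransferase Hs6st2 at 1.28 (SE 0.40), although at 0.503 to 1.24 CPM in the means of these groups. Hs6st2 was not called without replicate 1 (1.19, adjusted p = 0.0772), which left 4.

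The intracellular genes of the pathway were read against the same shares of all genes called, 10.4% higher and 6.11% lower against naïve and 9.33% and 3.23% against contralateral cartilage. Of 19 adaptor and Ras-ERK genes, 1 was called higher, the phospholipase Plcg1, a direct substrate of FGF receptors (log2 fold change 0.74, SE 0.0865, adjusted p = 1.25e-05). This is a single gene near the background, and the list median was 0.15, against -0.04 over all genes tested. None of the 19 was called against contralateral cartilage, where Plcg1 was at 0.48 (SE 0.134), but without replicate 1 Plcg1 was called there (0.69, adjusted p = 0.000377). Of 13 tested feedback inhibitors and targets, 3 were called higher and 0 lower in both comparisons, with a median of 0.34 against naïve cartilage. They were the inhibitors Spred3 (0.73, SE 0.267, adjusted p = 0.0497), Il17rd (0.64, SE 0.176) and Spred1 (0.59, SE 0.0871), the last just above the 1.5-fold limit. Without replicate 1 Spry2 was called as well against contralateral cartilage (0.63, adjusted p = 0.00672), which made 4. Against injured cartilage of day 1, however, 0 of the 13 were called higher and 0 lower, beside 9.04% and 6.38% of all genes. Dusp6, an ERK phosphatase named here after its value was seen, held 42.1 ± 4.06 CPM in naïve and 42.1 ± 3.87 CPM in injured cartilage.

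Of 7 co-receptors and ligand carriers, 1 was called higher and 1 lower against naïve cartilage, beside 10.4% and 6.11% of all genes, so that each is a single gene near the background. Flrt2, a membrane protein of a family that binds FGF receptors, rose by 1.13 (SE 0.138), and Kl, the co-receptor klotho, fell by 0.72 (SE 0.202, adjusted p = 0.0149) from 3.61 ± 0.651 to 2.19 ± 0.589 CPM. Against contralateral cartilage of day 7 the list held 1 higher call, Flrt2 (1.38, SE 0.217), and 0 lower, with Kl at -0.38 (adjusted p = 0.273), or -0.28 (adjusted p = 0.508) without replicate 1. Kl was not called against day 1 injured cartilage either (-0.54, adjusted p = 0.0919). Of 17 other FGF ligands, 8 passed the filter on low counts, of which 3 were called higher and 0 lower, beside the same 10.4% and 6.11% of all genes. Fgf14 (1.46, SE 0.371) and Fgf11 (0.70, SE 0.204) belong to the FGF homologous factors, which are not secreted, and Fgf16 (1.90, SE 0.659, adjusted p = 0.0412) had only 10 to 16 estimated counts in the injured libraries. Since a gene this scarce can pass the filter through the group where it is high, its count is a description. The same 3 were called higher than in contralateral cartilage, where Fgf16 had 1 to 3 counts per library, too few for a fold change, and Fgf14 was at 2.42 (SE 0.550), with 1, 17 and 31 counts in the contralateral libraries, the first being replicate 1. Without it Fgf14 was at 2.05 (adjusted p = 0.0116) and Fgf11 was not called (0.67, adjusted p = 0.0929). Against injured cartilage of day 1, 1 of these 8 other ligands was called higher and 1 lower, beside 9.04% and 6.38% of all genes.

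**Figure D5:**
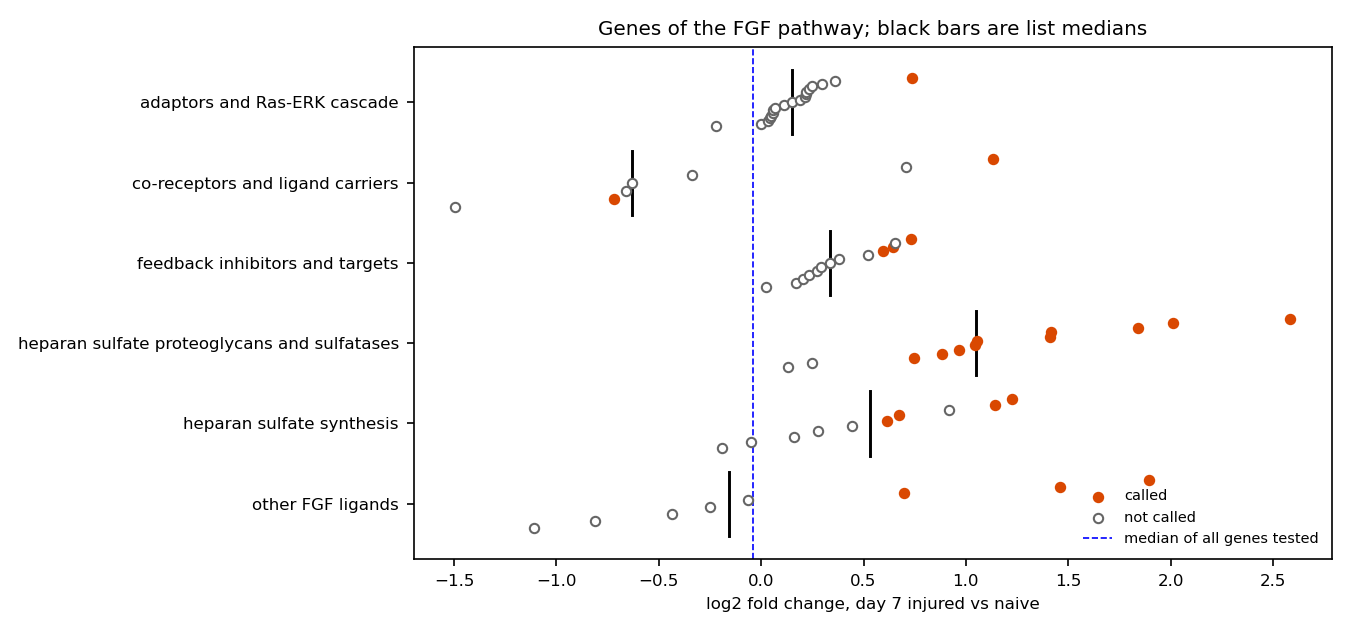
Log2 fold change of every tested gene of 6 FGF pathway lists, day 7 injured against naïve cartilage. Filled points passed the adjusted p and fold limit, black bars are list medians and the dashed line is the median of all genes tested (-0.04); the heparan sulfate proteoglycan and sulfatase list lies farthest to the right, with a median of 1.05.

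The genes most like each called member were found by Pearson correlation of log2 CPM over the 18 libraries, among 15988 genes of at least 1 CPM on average. As the injured libraries of day 7 stand apart, these values mostly reflect that separation and carry no test. Fgf7 was most like Mecom (r = 0.96), Ttc26 (0.96) and Adgrl2 (0.96), and Fgf18 most like Emp1 (0.95), Srxn1 (0.95) and Ppp1r13l (0.95). Fgfr1 was most like Wwc2 (0.97), Kank2 (0.97) and Nckap5l (0.96), and Fgfrl1 most like C1qtnf2 (0.97), Cacna1g (0.97) and Ssc5d (0.97).

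The labelled cell type, the chondrocyte, was checked by its markers, together with those of other cells that a cap of cartilage can carry. All 15 chondrocyte markers were detected, with Col2a1 as the most abundant at 3240 CPM in naïve cartilage. At day 7, 4 were called higher and 1 lower than in naïve cartilage, beside 10.4% and 6.11% of all genes. Against contralateral cartilage of day 7, 5 of the 15 were called higher and 0 lower, beside 9.33% and 3.23% of all genes. Without replicate 1 of that group those called higher were Acan, Col11a1, Comp and Sox9. Every other list was detected too, and no marker of any list was at 0 in all libraries. The summed CPM of the erythroid list, led by Hbb-bs, was 30797 to 41287 in naïve and 16677 to 27502 in day 7 injured libraries. Blood, marrow and muscle RNA was thus present in all groups.

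Markers of other cells were compared with naïve cartilage in the same way, where 10.4% of all genes were called higher and 6.11% lower. The 12 synovial fibroblast markers summed to 532 to 701 CPM in naïve, 580 to 617 in day 7 contralateral and 1104 to 1337 CPM in day 7 injured libraries, and 6 were called higher and 0 lower than in naïve cartilage. Their most abundant gene, Pdgfra, averaged 101 CPM in naïve and 249 CPM in day 7 injured cartilage. The osteoblast and osteocyte list summed to 8876 to 17231 CPM in naïve, 16033 to 52877 CPM in day 7 contralateral (the highest being replicate 1) and 47349.6 to 55059.6 CPM in day 7 injured libraries. In it Col1a1 alone averaged 12425 CPM in naïve and 50924 CPM in day 7 injured cartilage, and 1 of its 9 genes was called higher and 2 lower. Of the endothelial list 5 of 8 were called higher, of the hypertrophic chondrocyte list 3 of 7 and of the osteoclast list 1 of 7, with 0 lower in each. The most abundant endothelial gene, Vwf, went the other way, from a mean of 255 CPM in naïve to 195 CPM in day 7 injured cartilage. Col10a1, which led the hypertrophic list, averaged 346 and 337 CPM, and Acp5, which led the osteoclast list, 329 and 460 CPM. The 1 of 7 osteoclast genes is close to the share of all genes. Against contralateral cartilage of day 7, where 9.33% of all genes were called higher, the synovial fibroblast list held 7 of 12 higher, the endothelial list 3 of 8, and the hypertrophic chondrocyte, osteoclast and osteoblast lists 0. Without replicate 1 of the contralateral group these counts were 6, 4, 0, 0 and 1, the last being Col1a1 (1.48, adjusted p = 0.00609). Lower calls in the osteoblast and osteocyte list numbered 1 of 9 with all libraries, beside 3.23% of all genes. Without replicate 1 they were Dmp1 (-0.90, adjusted p = 0.0200) and Sost (-0.92, adjusted p = 0.0336), beside 1.99% of all genes. The part of these cells in the changes of Fgf7, Fgf18, Fgfr1 and Fgfrl1 was not tested.

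Other lists held only lower calls or none against naïve cartilage. Of the erythroid list 4 of 8 were called lower, of the adipocyte list 3 of 6, of the neutrophil and marrow myeloid list 2 of 8, of the skeletal muscle list 1 of 8 and of the B cell list 1 of 6, with 0 higher in each, beside 6.11% of all genes. The last pair are single genes. None of the 9 macrophage or 8 proliferation markers was called in either direction against naïve cartilage by edgeR. Against contralateral cartilage of day 7, where 3.23% of all genes were called lower, 5 of 8 erythroid, 4 of 6 adipocyte and 3 of 8 neutrophil and marrow myeloid genes were lower. Without replicate 1 of that group these counts were 0, 1 and 2, beside 1.99% of all genes. With all libraries, 1 of 9 macrophage and 1 of 8 proliferation genes were also lower than in contralateral cartilage, and 1 of 6 B cell genes was higher.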

How the data were processed

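Per the labels and methods, the authors trimmed paired reads of stranded total RNA libraries and pseudo-aligned them with Kallisto to the GRCm38 transcriptome. The build named in the labels, GRCh38, is that of another species and was disregarded. Deposited per transcript were estimated counts, not normalized by the authors, and TPM, which the authors' software scaled by transcript length and library total. The strand setting of Kallisto is not given in the sources used here.

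Transcripts were matched without version to GENCODE vM21 (135107 of 137436). The others held 0.667% to 3.90% of counts per library. Counts were summed per gene, rounded, TMM-normalized and tested with edgeR 4.0.16 (quasi-likelihood, R 4.3.3), with a mean per group, edgeR's filter on low counts and Benjamini-Hochberg adjustment. Comparisons without day 7 contralateral libraries used the other 15 libraries (21129 genes), the rest all 18 (21262 genes). A gene was called at an adjusted p of at most 0.05 and at least 1.5-fold, and the difference between days by adjusted p alone. Receptor ratios and IIIb shares were compared by two-sided exact permutation tests (scipy 1.17.1). The edgeR test was checked on simulated counts, and the permutation test on separated groups with a known p. The precision of each value is given by its SE or SD, and intervals from estimated counts were not computed.

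The study removed 1 library for low mapping without naming it here, so all 18 were kept. Alternatives were DESeq2 1.42.0, limma-voom 3.58.1, other normalizations, filters, thresholds and sets of libraries or transcripts, and leaving out each library.

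The members and lists were chosen with earlier results of these data known. Named from each pathway list were up to 4 called genes with the largest change against naïve and up to 2 against contralateral cartilage at day 7, and for each called member the 3 genes most correlated with it.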

Additional observations from a re-analysis of the deposited data

Results flagged for a closer look

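Fgf7 was flagged because its injury effect, injured against contralateral cartilage, differed between the days. The effect was larger at day 7 by 1.70 on the log2 scale (SE 0.375, adjusted p = 0.0140 by edgeR's test of the difference itself). All 3 injured libraries lay above all 3 contralateral libraries at day 7, whereas the groups overlapped at day 1. No naïve library stood alone in the 14 naïve groups of values examined, those of the 10 genes, the receptor ratio and the 3 IIIb shares.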

How the results depend on the processing

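Fgf7, Fgf18, Fgfr1 and Fgfrl1 were called higher than in naïve cartilage at day 7 under every alternative run. Against day 7 contralateral cartilage, with the length offset and all 18 libraries, 2 of the 10 genes were called higher and 1 (Fgf1, -0.79) lower. Fgfr1 was not called there by edgeR with only the 2 groups compared (adjusted p = 0.0642). Fgf2 was called higher there with DESeq2 (0.77, adjusted p = 0.0350), with only the 2 groups (0.78, adjusted p = 0.0406) and without replicate 3 of the contralateral group (0.95, adjusted p = 0.0455). With protein-coding transcripts only, 1 gene (Fgf1) was called lower at day 7 against naïve (-0.65) and against day 1 injured cartilage (-0.89), and leaving out each library gave 0 to 1 lower in the latter (Fgf1 at -0.68 without day 1 injured replicate 2, adjusted p = 0.0486). Against day 1 injured cartilage, Fgf18 was not called at an adjusted p limit of 0.01 or without day 1 injured replicate 1 (1.38), day 1 injured replicate 3 (1.34) or day 7 injured replicate 3 (1.22). In that comparison Fgfr2 (0.52, adjusted p = 0.00147) was called higher with no fold limit and without day 1 injured replicate 3 (0.61, adjusted p = 0.000999). The difference between the days was passed by 0 genes at a limit of 0.01, by 2 (Fgf7 and Fgfrl1) with DESeq2, limma-voom or protein-coding transcripts, by 1 (Fgf7) with the length offset, where Fgfrl1 was 0.17 (adjusted p = 0.893), and by 0 to 2 with 1 library left out. Causes were not tested.

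Signs changed only for values that were not called. For day 7 injured against contralateral cartilage, Fgfr3 was -0.0057 with DESeq2 size factors, -0.0041 without a filter, -0.0029 with DESeq2's test and -0.0257 with coding transcripts. For day 7 against day 1 injured cartilage, Fgf10 was -0.0175, -0.0066, -0.0225 and -0.14 in the same order, -0.0152 with all 18 libraries and -0.0367 with the 2 groups alone. There Fgf2 was -0.12 with coding transcripts and -0.0140 with the 2 groups alone, and Fgfr4 was 0.0168 with limma-voom. With the length offset, day 1 injured against naïve cartilage gave 0.0231 for Fgfr2 and -0.11 for Fgfr3, Fgf2 was -0.21 against day 1 contralateral cartilage, and the difference between days was -0.0289 for Fgfr2.

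With 1 library left out, log2 values ranged as follows. Day 1 injured against naïve cartilage gave -0.0404 to 0.39 for Fgf1, -0.91 to 0.21 for Fgf10, -0.15 to 0.35 for Fgf18, -0.0223 to 0.28 for Fgf7, -0.13 to 0.0234 for Fgfr2, -0.0333 to 0.21 for Fgfr3 and -0.16 to 0.0393 for Fgfrl1. Against day 1 contralateral cartilage it gave -0.26 to 0.86 for Fgf10, -0.0234 to 0.53 for Fgf2 and -0.12 to 0.31 for Fgf7. Day 7 against day 1 injured cartilage gave -0.49 to 0.63 for Fgf10, -0.10 to 0.13 for Fgf2 and -0.33 to 0.24 for Fgfr4. Day 7 injured against naïve cartilage gave -0.44 to 0.0201 for Fgf10, against contralateral cartilage -0.14 to 0.26 for Fgfr3, and the difference between days -0.0200 to 0.29 for Fgfr2.

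The ratio of Fgfr1 to Fgfr3 at day 7, injured against contralateral cartilage, was 0.62 from estimated counts and 0.21 from TPM. At day 1 it ranged from -0.0370 to 0.22 with 1 library left out. From TPM, IIIb shares differed by 0.176 (Fgfr1) and 0.462 (Fgfr3) percentage points between injured and contralateral cartilage at day 7, and by 0.107 (Fgfr2) between day 1 injured and naïve cartilage. With 1 library left out, the difference at day 7 against contralateral cartilage ranged from -1.62 to 0.304 for Fgfr1, -1.88 to 1.90 for Fgfr2 and -4.82 to 2.14 for Fgfr3, and against naïve cartilage from -0.621 to 0.704 for Fgfr1 and -0.419 to 0.752 for Fgfr2. At day 1 it ranged from -1.001 to 0.511 for Fgfr2 against naïve and from -1.25 to 5.67 for Fgfr3 against contralateral cartilage.

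Counts over all genes moved by over 1.5 times in some settings. With an adjusted p limit alone, 3960 genes rose and 2331 fell at day 7 against naïve cartilage, 3427 rose against day 1 injured cartilage and 1310 fell against contralateral cartilage. A limit of 0.01 left 472, 382 and 251 genes that fell in these comparisons and 341 larger and 3 smaller differences between days. Against contralateral cartilage 452 fell with limma-voom and 279 with the 2 groups alone, and 690 fell against day 1 injured cartilage with coding transcripts. Between days, 517 were larger and 28 smaller with the length offset, 25 smaller without a filter and 196 smaller with DESeq2. With 1 library left out, genes that fell ranged from 797 to 1425 against naïve, 279 to 1058 against contralateral and 849 to 1173 against day 1 injured cartilage, and differences between days from 396 to 979 larger and 9 to 93 smaller. No paired analysis was possible because the labels do not tie injured to contralateral libraries. The study's methods allowed for libraries of the same mouse pool by an estimated correlation, which was not repeated here. Low counts limit the precision of Fgfr4 (4 to 22 per library) and of the IIIb share of Fgfr3 (0 to 92.6 on the IIIb form).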
